A study of Mus musculus with 10 samples.

Results

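The WNT genes described here were 10 genes that encode secreted antagonists (*Dkk1*, *Cer1*, *Sfrp1* and *Sfrp5*), a ligand (*Wnt3*), target genes of the pathway (*Axin2* and *Sp5*) and the TCF/LEF factors *Lef1*, *Tcf7* and *Tcf7l1*. They were chosen by name from 21951 annotated mouse protein-coding genes, with earlier results of these data known. A gene was scored as marked in a library where an H3K4me3 peak overlapped, by at least 1 bp, the window from 1000 bp before to 100 bp after any of its start sites. By this rule 6 of the 10 genes were marked in at least 1 of the 10 libraries, as were 11632 genes of the whole annotation, and *Cer1*, *Sfrp1*, *Sfrp5* and *Wnt3* were marked in none.

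The study profiled H3K4me3 by CUT&Tag in naive extra-embryonic endoderm (nEnd), a culture model of the primitive endoderm (PrE) of the blastocyst. The cells came from an OCT4-mCherry mouse embryonic stem cell (ESC) reporter line that had been differentiated to PrE, sorted for PDGFRA and expanded on feeder fibroblasts. FACS for the reporter and for PDGFRA-APC gave Oct4+ nEnd (mCherry alone, 4 libraries), double positive or DP nEnd (both, 3 libraries) and Pdgfra+ nEnd (PDGFRA alone, 3 libraries). The comparison asks how promoter marking differs between the subpopulations that the sort separates. No treatment separated the populations, and all 3 were grown in the same medium of LIF, Activin A and CHIR99021, a GSK3 inhibitor that stabilises beta-catenin, so no library represents cells without WNT pathway stimulation. All libraries came from 1 line. The study describes its coverage tracks as made from 3 biological replicates, but neither it nor the labels say which libraries were separate cultures. The p-values therefore measure the spread between these libraries only.

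H3K4me3 is laid down around the start sites of active genes and at some genes held poised. In canonical WNT signalling, a ligand binds a Frizzled receptor and the coreceptors LRP5 or LRP6, the complex of AXIN, APC, CK1 and GSK3 stops degrading beta-catenin, and beta-catenin joins TCF/LEF factors on DNA to switch on target genes. Secreted antagonists act outside the cell, either on the coreceptors or by capturing the ligand. In the embryo several of these antagonists mark the anterior visceral endoderm, a descendant of the PrE, and in ESCs TCF7L1 is known as a repressor that limits the pluripotency programme.

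Promoter sequences are given for the 4 genes on which the results turn: *Dkk1*, unmarked in Oct4+ nEnd, *Axin2* and *Tcf7l1*, marked in every library, and *Sp5*, a target gene marked in a single library. Each runs 5′ to 3′ on the coding strand, from 250 bases before to 50 after the RefSeq start in GRCm38.p6, and capitals mark the TCF/LEF heptamer CTTTGAA, or its variants ending in AT, TA or TT, on either strand. Of all 32851 mouse promoters of this length, 16.9% held at least 1 of these heptamers. *Dkk1* lies at chr19:30549447-30549746 (minus strand), *Axin2* at chr11:108920099-108920398 (plus), *Tcf7l1* at chr6:72788996-72789295 (minus) and *Sp5* at chr2:70474673-70474972 (plus).
Dkk1: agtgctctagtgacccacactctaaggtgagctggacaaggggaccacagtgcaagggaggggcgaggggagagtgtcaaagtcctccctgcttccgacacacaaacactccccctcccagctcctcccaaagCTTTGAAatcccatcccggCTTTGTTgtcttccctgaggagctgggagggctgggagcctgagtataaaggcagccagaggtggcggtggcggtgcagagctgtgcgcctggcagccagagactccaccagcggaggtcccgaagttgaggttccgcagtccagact
Axin2: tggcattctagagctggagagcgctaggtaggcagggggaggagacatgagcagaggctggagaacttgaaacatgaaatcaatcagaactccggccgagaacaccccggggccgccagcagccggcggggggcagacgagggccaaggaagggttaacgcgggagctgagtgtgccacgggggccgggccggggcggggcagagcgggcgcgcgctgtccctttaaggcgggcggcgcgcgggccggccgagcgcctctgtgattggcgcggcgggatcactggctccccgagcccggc
Tcf7l1: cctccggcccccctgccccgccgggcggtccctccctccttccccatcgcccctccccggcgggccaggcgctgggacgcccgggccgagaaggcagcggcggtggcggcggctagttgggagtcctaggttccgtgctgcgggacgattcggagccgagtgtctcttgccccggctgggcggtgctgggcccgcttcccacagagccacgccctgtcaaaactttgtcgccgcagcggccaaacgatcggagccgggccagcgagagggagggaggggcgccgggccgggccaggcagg
Sp5: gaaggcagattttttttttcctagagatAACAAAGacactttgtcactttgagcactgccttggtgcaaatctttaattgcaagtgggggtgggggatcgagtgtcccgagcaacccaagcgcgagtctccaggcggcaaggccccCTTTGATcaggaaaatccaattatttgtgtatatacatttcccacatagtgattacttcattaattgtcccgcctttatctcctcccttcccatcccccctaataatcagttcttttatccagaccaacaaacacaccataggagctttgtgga

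The *Dkk1* promoter held 2 heptamers, CTTTGAA with its first base at -117 and CTTTGTT at -98 from the RefSeq start, and the *Sp5* promoter also held 2. Neither *Axin2* nor *Tcf7l1* held one in this window. The annotation used to score peaks starts *Dkk1* at 30549665 and *Tcf7l1* at 72789254, upstream of their RefSeq starts at 30549496 and 72789045. By that annotation both *Dkk1* heptamers and most of the printed *Tcf7l1* window lie inside the gene. The windows differed more plainly in CpG: *Axin2* had 31 CpG dinucleotides and *Tcf7l1* had 34, against 9 at *Dkk1* and 6 at *Sp5*, where the median of all promoters was 7 (quartiles 3 and 20). Of the other genes, RefSeq promoters were found for *Cer1* (6 CpG), *Sfrp5* (15), *Wnt3* (24), *Tcf7* (45 and 17 at its 2 starts) and *Lef1* (18, 21, 8 and 5 at its 4 starts), so 9 of the 10 genes were matched. In every library in which *Dkk1*, *Axin2*, *Tcf7l1* or *Sp5* was marked, the peak covered the whole printed window.

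The libraries held 3477 to 10545 peaks, and Oct4+ replicates 3 and 4 held the fewest, with 3477 and 4887. Coverage was not scaled between libraries, so each promoter peak is given as its percentile among all peaks of its own library, first by total signal (coverage summed over the peak) and then by highest coverage, with 0 where no peak was called. A 0 means that no peak passed the caller and not that the mark was absent. Over all 11632 genes tested the median difference was -6.83 percentile points for Oct4+ minus DP, -7.42 for Oct4+ minus Pdgfra+ and -0.594 for DP minus Pdgfra+, and the values below are to be read against these shifts. Of 10 pluripotency markers, all 10 were marked in each Oct4+ library, 5 to 7 in each DP library and 1 to 3 in each Pdgfra+ library. Of 10 endoderm markers, 0 to 6 were marked per Oct4+ library and 9 or 10 in each DP and Pdgfra+ library. Of 15 fibroblast markers, 13 were marked in no library.

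**Figure D1:**
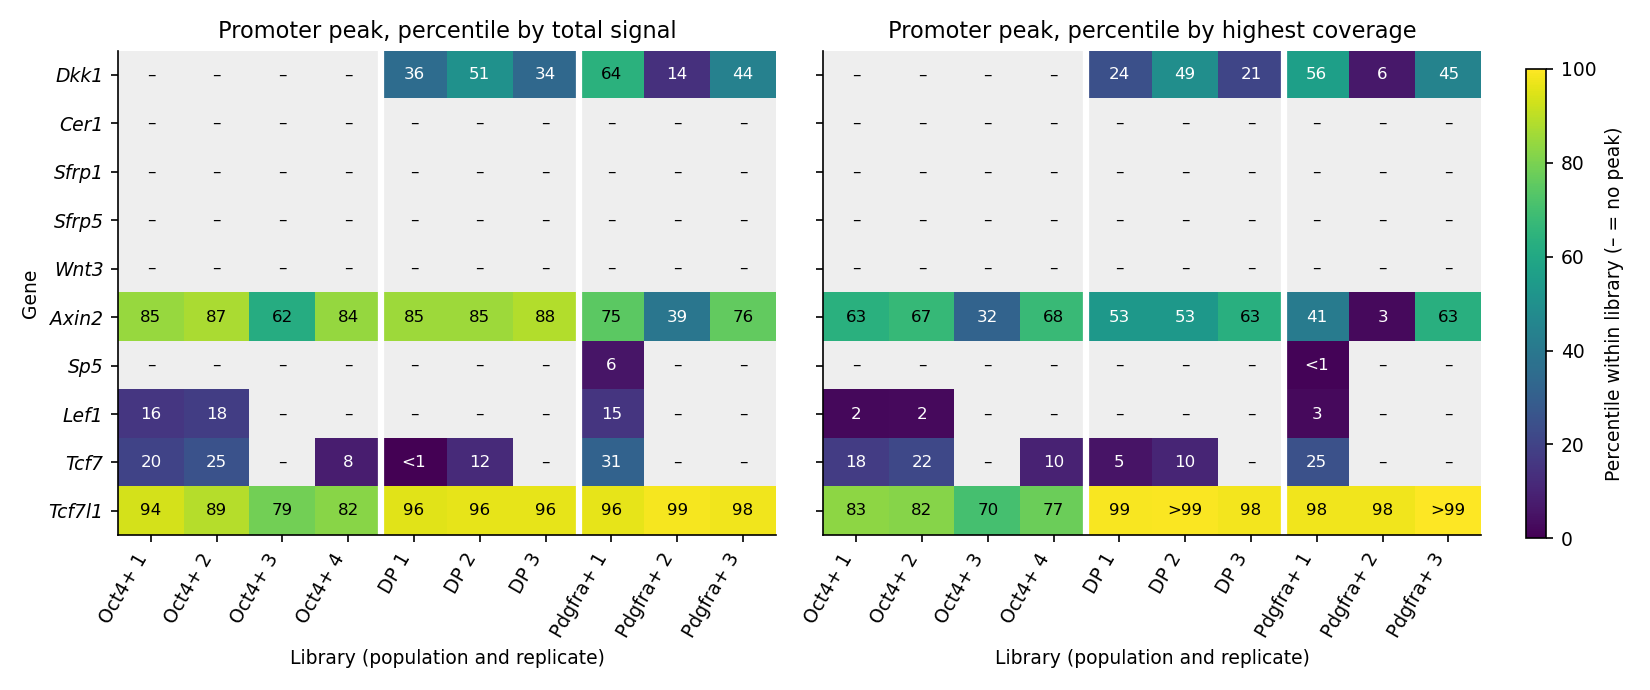
Percentile of the promoter H3K4me3 peak of each of the 10 genes (vertical axis) within each of the 10 libraries (horizontal axis), by total signal (left) and by highest coverage (right), with a dash where no peak was called. Dkk1 is empty in the 4 Oct4+ libraries and filled in the other 6, Tcf7l1 and Axin2 are filled in all 10, and Cer1, Sfrp1, Sfrp5 and Wnt3 are empty throughout.

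Of the antagonist genes *Dkk1*, *Cer1*, *Sfrp1* and *Sfrp5*, *Dkk1* alone carried a promoter peak. *Dkk1*, which binds the LRP coreceptors and blocks them, carried a promoter peak in 3 of 3 DP libraries and 3 of 3 Pdgfra+ libraries and in 0 of 4 Oct4+ libraries. By total signal its peak stood at the 35.5, 50.5 and 33.6 percentile in DP replicates 1 to 3 and at the 63.9, 13.8 and 43.9 percentile in Pdgfra+ replicates 1 to 3. Pdgfra+ replicate 2 was the lowest of the 6 marked libraries and Pdgfra+ replicate 1 the highest, and neither range overlapped with that of Oct4+ nEnd. Ranges lay apart in this direction for 23.3% of all genes tested against DP and 18.8% against Pdgfra+. The stricter pattern of *Dkk1*, marked in every DP and no Oct4+ library, was found in 3.64% of all genes tested. Genes marked in every Pdgfra+ and no Oct4+ library made up 2.68%.

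The difference in percentile by total signal was -39.9 points for Oct4+ minus DP (SE 11.1, 95% interval -64.2 to -15.6), with a limma adjusted p of 0.0539, just above the threshold of 0.05. For Oct4+ minus Pdgfra+ it was -40.5 points (SE 11.1, interval -64.8 to -16.2) and passed, with an adjusted p of 0.0341. The exact permutation test gave p = 0.0286 for both, the smallest that 4 against 3 libraries allow, and 0.252 and 0.240 after adjustment over all genes. The call against Pdgfra+ was lost (adjusted p = 0.0501 to 0.111) without Oct4+ replicate 2, 3 or 4, any 1 DP library, or Pdgfra+ replicate 1 or 3, and that against DP was gained without Pdgfra+ replicate 1 or 2 (adjusted p = 0.0235 and 0.0141). With replicate number as a block in the limma fit, the call against Pdgfra+ was lost too (adjusted p = 0.0866). Relative to the median of all genes, the differences were -33.1 points in both comparisons. By highest coverage the peak stood at 24.4, 49.3 and 21.04 in DP and at 56.4, 6.48 and 44.8 in Pdgfra+, and the differences from Oct4+, -31.6 and -35.9 points, had adjusted p-values of 0.193 and 0.102. Without Pdgfra+ replicate 2 the latter was -50.6 points, with an adjusted p of 0.0137. DP and Pdgfra+ nEnd differed by -0.61 points by total signal (interval -26.6 to 25.3), an interval wide enough to hold a difference in either direction.

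The *Dkk1* peak was 4128, 4743 and 4060 bp wide in DP nEnd and 4045, 1815 and 3059 bp in Pdgfra+ nEnd. Each DP peak was wider than each Pdgfra+ peak, as was the case for 12.2% of all genes, and the difference of 0.46 on the log2(kb + 1) scale had an adjusted p of 0.854, beside a median of 0.27 over all genes. With the width set to 0 in the 4 Oct4+ libraries, which had no peak, it differed by -2.41 from DP (adjusted p = 0.021) and by -1.95 from Pdgfra+ (adjusted p = 0.0496) on the same scale, or by -2.04 and -1.71 relative to the median of all genes. These width differences rest on the same absence of a peak in Oct4+ nEnd and are not a separate measure of it. The first call was lost without Oct4+ replicate 4, any 1 DP library or Pdgfra+ replicate 3 (adjusted p = 0.0592 to 0.192), and the second without Oct4+ replicate 2, 3 or 4, any 1 DP library or Pdgfra+ replicate 3 (adjusted p = 0.0592 to 0.280). The second was also lost with replicate number as a block in the limma fit (adjusted p = 0.114). The highest coverage lay 443 to 692 bp inside the gene, which spans chr19:30545863-30549665 on the minus strand and has a single annotated start. In the Oct4+ libraries the nearest peak of any kind was 373 to 742 kb from the promoter window, and none lay in the gene.

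The number of peaks varied among libraries along with this result. Oct4+ replicate 1 held 9144 peaks, more than any DP library, and replicate 2 held 8098, and neither had a peak at *Dkk1*. Among the libraries that had one, its percentile was lowest in the library with the fewest peaks (13.8, 6510 peaks) and highest in the one with the most (63.9, 10545 peaks). When every library was limited to its 3477 strongest peaks, no library kept a *Dkk1* peak. The median highest coverage of the peaks was 59, 52, 22 and 38 in Oct4+ replicates 1 to 4. It was 107, 144 and 123 in DP replicates 1 to 3 and 143, 67 and 76 in Pdgfra+ replicates 1 to 3. Each Oct4+ value was below each value of the other populations, so coverage and population cannot be told apart. The part of the number of peaks and of coverage in the *Dkk1* result was not tested beyond these values. Fibroblast markers, which would report feeder cells, reached a summed percentile of 0 to 1.04 in Oct4+ libraries, 0 to 16.7 in DP and 0 to 22.5 in Pdgfra+, from *Twist1* and *Tbx15* alone, and their part in the *Dkk1* result was not tested. In bulk libraries a smaller share of cells with the mark and less mark per cell cannot be told apart.

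**Figure D2:**
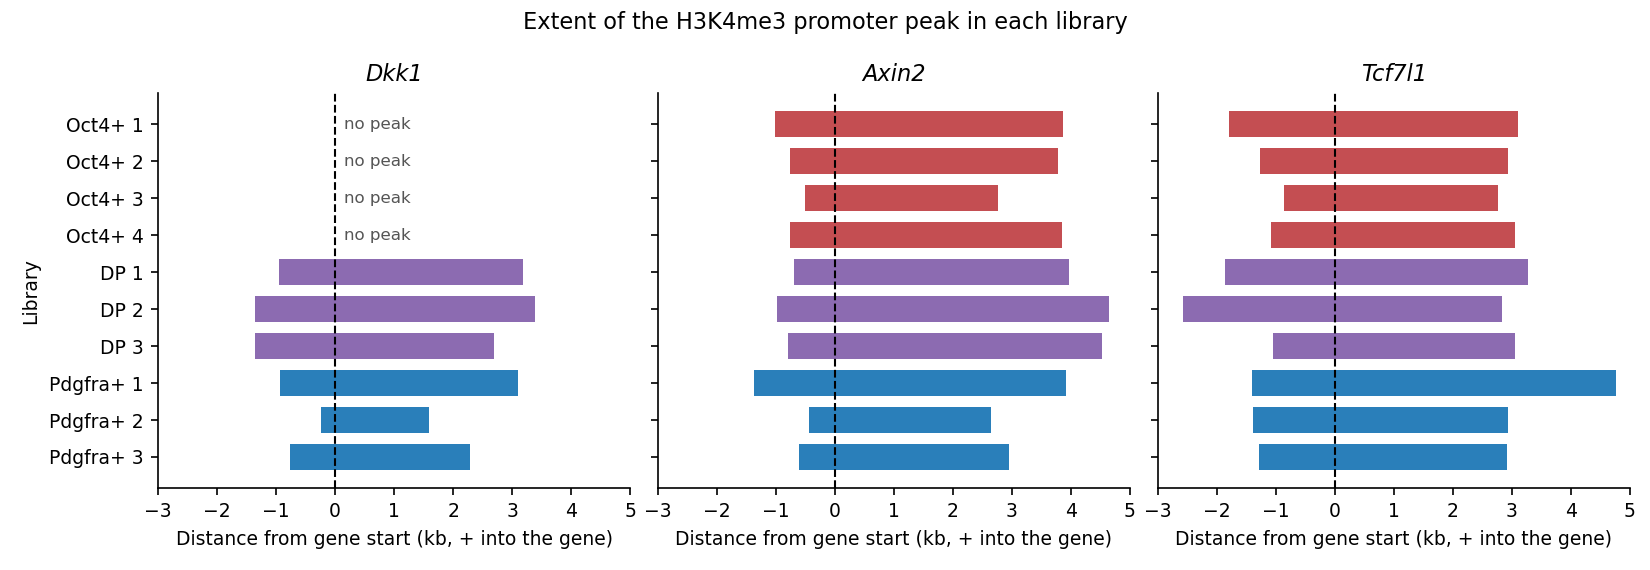
Extent of the promoter peak of Dkk1, Axin2 and Tcf7l1 in each library, in kb from the start of the gene, with positive distances running into the gene; colours are the populations. Dkk1 has no bar in the 4 Oct4+ libraries and its shortest bar, 1815 bp, in Pdgfra+ replicate 2.

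*Cer1*, *Sfrp1* and *Sfrp5* carried no promoter peak in any population. *Cer1*, a secreted inhibitor of NODAL, BMP and WNT ligands, had its nearest peak 23.5 to 378 kb from the window. *Sfrp1* and *Sfrp5* encode decoy receptors that bind WNT ligands, and their nearest peaks were 152 to 153 kb and 29.0 to 72.1 kb away. None of these genes had a peak within its body in any library. The ligand gene *Wnt3*, which is needed for the primitive streak, was likewise unmarked in all 10 libraries, with the nearest peak 73.6 to 639 kb away.

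*Axin2*, a scaffold of the destruction complex that is itself a WNT target, was marked in all 10 libraries. In Oct4+ replicates 1 to 4 its peak stood at the 84.7, 87.2, 62.0 and 84.1 percentile by total signal. In DP nEnd it stood at 85.3, 85.3 and 88.5, and in Pdgfra+ nEnd at 74.96, 39.3 and 76.0. The Oct4+ range took in all but 1 of the DP values, and each DP value was above each Pdgfra+ value, which held for 2.68% of all genes. Oct4+ replicate 3 and Pdgfra+ replicate 2, the lowest of their populations, were also the libraries of those populations with the fewest peaks.

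No difference in *Axin2* passed the test. Oct4+ minus DP was -6.83 points by total signal (interval -27.1 to 13.5, limma adjusted p = 0.731), and -0.976 points without Oct4+ replicate 3. Oct4+ minus Pdgfra+ was 16.1 points (interval -4.18 to 36.4, adjusted p = 0.261), and 4.05 points without Pdgfra+ replicate 2. DP minus Pdgfra+ was 22.9 points (interval 1.25 to 44.6), with p = 0.04 before and 1 after adjustment in limma, and p = 0.1 in the exact permutation test, the smallest that 3 against 3 libraries allow. Without Pdgfra+ replicate 2 that difference was 10.9 points. With equal numbers of peaks per library, Oct4+ minus Pdgfra+ came to 44.1 points for *Axin2* and passed (limma adjusted p = 0.00533), in a setting where 2 of the 3 Pdgfra+ libraries kept an *Axin2* peak. In that setting 1139 of all 6344 genes tested were called higher and 1397 lower in Oct4+ than in Pdgfra+ nEnd. By highest coverage the peak ranked lower than by total signal in every library, at 31.8 to 67.8 in Oct4+, 53.4 to 63.2 in DP and 2.57 to 63.2 in Pdgfra+ nEnd. The *Axin2* peaks were 3271 to 4870 bp wide in Oct4+, 4664 to 5622 bp in DP and 3094 to 5297 bp in Pdgfra+ nEnd and reached 2652 to 4642 bp into the gene, at chr11:108920349-108950783.

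*Sp5*, a zinc finger factor that is a common WNT target, was marked in 1 library alone. In Pdgfra+ replicate 1, the library with the most peaks, a peak of 2834 bp stood at the 5.60 percentile by total signal and at 0.948 by highest coverage. In the other 9 libraries the nearest peak lay 185 to 348 kb away.

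Of the TCF/LEF factors, *Tcf7l1* was marked in all 10 libraries, and each library with PDGFRA ranked it above each Oct4+ library. By total signal its peak stood at 93.6, 89.0, 78.5 and 82.3 in Oct4+ replicates 1 to 4, at 95.7, 96.3 and 96.1 in DP and at 96.4, 98.8 and 97.8 in Pdgfra+ nEnd. Among the Oct4+ libraries the percentile by total signal followed the number of peaks, from 3477 peaks in replicate 3 to 9144 in replicate 1. With equal numbers of peaks per library, Oct4+ minus DP was -12.9 points for *Tcf7l1* (limma adjusted p = 0.00578). In that setting 773 of all 6344 genes tested were called higher and 1116 lower in Oct4+ than in DP nEnd. Every Oct4+ value was below every DP and Pdgfra+ value, a separation shown by 23.3% of all genes against DP and 18.8% against Pdgfra+. Each Pdgfra+ value was also above each DP value, as for 4.64% of all genes. In Pdgfra+ replicate 2 it was the peak ranked 79 of 6510.

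By highest coverage the separation of *Tcf7l1* was wider. Its peak stood at 83.1, 81.9, 70.4 and 77.4 in Oct4+, at 98.8, 99.3 and 98.1 in DP and at 98.0, 97.9 and 99.7 in Pdgfra+ nEnd. No Oct4+ value reached a value of the other populations, a separation found in 16.5% of all genes against DP and 11.8% against Pdgfra+. Oct4+ was lower than DP by 20.6 points (difference -20.6, SE 4.53, interval -30.4 to -10.8, limma adjusted p = 0.0278) and lower than Pdgfra+ by 20.3 points (difference -20.3, SE 4.53, adjusted p = 0.0196). By total signal the difference from Pdgfra+ was -11.8 points (SE 3.37, interval -19.2 to -4.41, adjusted p = 0.0413), and that from DP, -10.2 points (interval -17.6 to -2.79), did not pass (adjusted p = 0.0949). The exact permutation test gave p = 0.0286 for both differences by highest coverage and p = 0.0571 for both by total signal. After adjustment over all genes these were 0.292 (DP) and 0.321 (Pdgfra+) by highest coverage and 0.289 and 0.305 by total signal. The exact test called 0 of all 11632 genes, and the values by highest coverage are the smallest adjusted p that any gene reached. The calls by highest coverage were lost without Oct4+ replicate 4 (adjusted p = 0.0784 and 0.0552), that against DP also without any 1 DP library (0.137 to 0.182) and that against Pdgfra+ without Pdgfra+ replicate 3 (0.0717). The call by total signal was lost without Oct4+ replicate 4 or any 1 DP or Pdgfra+ library (0.0673 to 0.127), and without Oct4+ replicate 1 the difference from DP was -12.7 points and passed (0.0204). With replicate number as a block in the limma fit, the calls by highest coverage (adjusted p = 0.116 against DP and 0.0808 against Pdgfra+) and by total signal (0.118) were lost too. Relative to the median of all genes, these differences were -14.8 and -14.1 points by highest coverage against DP and Pdgfra+, and -3.34 and -4.37 by total signal. DP and Pdgfra+ nEnd differed by 0.23 points by highest coverage (interval -10.2 to 10.7).

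The width of the *Tcf7l1* peak did not pass any test: it was 3623 to 4886 bp in Oct4+, 4103 to 5408 bp in DP and 4214 to 6159 bp in Pdgfra+ nEnd, and the differences from Oct4+ had adjusted p-values of 0.683 and 0.666. The highest coverage lay within 144 bp of an annotated start in every library. The gene spans chr6:72626378-72789254 on the minus strand.

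*Lef1* and *Tcf7*, which encode mostly activating partners of beta-catenin, carried weak and inconstant marks. *Lef1* was marked in Oct4+ replicates 1 and 2 (15.8 and 18.0 by total signal) and in Pdgfra+ replicate 1 (15.4), and in no DP library. Its peak was broad and low, 3850 to 5473 bp wide, and stood at 2.13 to 2.51 by highest coverage, with the top between -618 and -759 bp from the nearest start and shared with the window of the antisense gene *Gm43352*. *Tcf7* was marked in Oct4+ replicates 1, 2 and 4 (19.9, 25.01 and 7.96), in DP replicates 1 and 2 (0.16 and 12.0) and in Pdgfra+ replicate 1 (31.5). The populations overlapped for both genes, and the limma adjusted p-values of the 3 comparisons lay between 0.394 and 1 for *Lef1* and between 0.587 and 1 for *Tcf7* by total signal.

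The libraries with *Lef1* or *Sp5* were those with the most peaks of their population. Pdgfra+ replicate 1 (10545 peaks) alone among the Pdgfra+ libraries carried *Sp5*, *Lef1* and *Tcf7*, and Oct4+ replicates 1 and 2 (9144 and 8098 peaks) carried *Lef1*. All peaks of these 3 genes stood at or below the 31.5 percentile by total signal, and none was among the 3477 strongest of its library. What the number of peaks contributed to their presence was not tested.

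**Figure D3:**
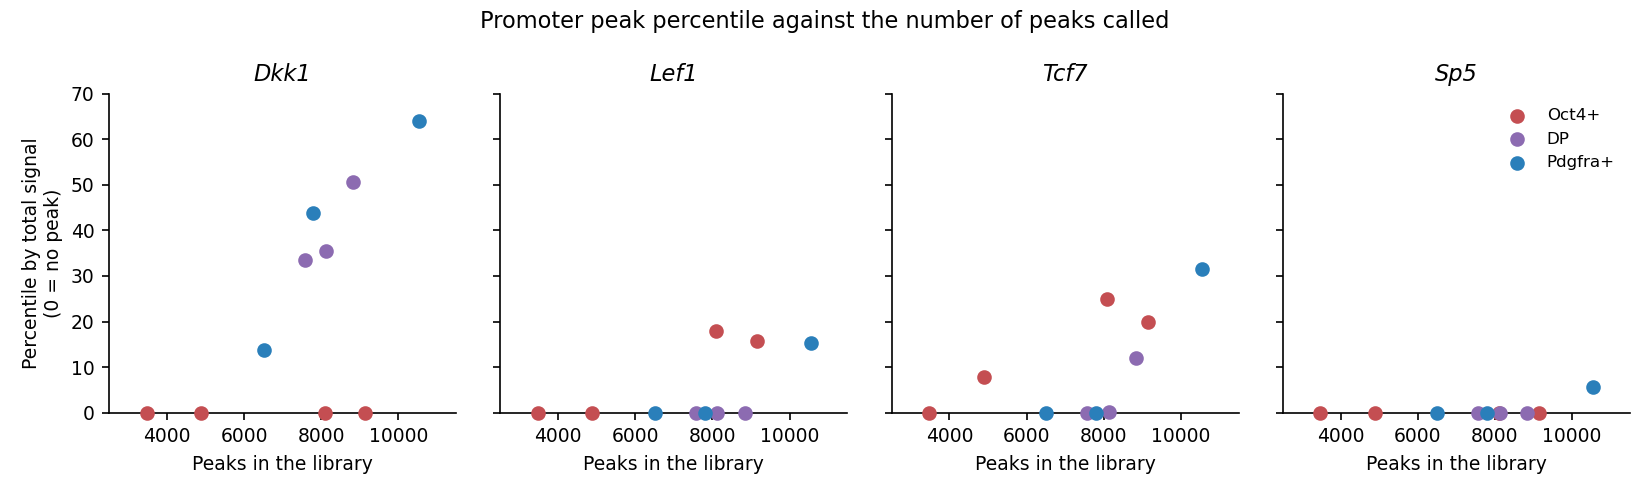
Percentile of the promoter peak by total signal (vertical axis, 0 where no peak was called) against the number of peaks called in each library (horizontal axis) for Dkk1, Lef1, Tcf7 and Sp5; points are libraries, coloured by population. Dkk1 is at 0 in Oct4+ libraries with 8098 and 9144 peaks, and above 0 in the DP libraries, with 7575 to 8836 peaks, while Sp5 appears only in the library with 10545 peaks.

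Counted together, 0 of the 6 genes tested were called between Oct4+ and DP by total signal, where 1.34% of all genes were called higher and 5.76% lower in Oct4+, and 2 of the 6 had an unadjusted p under 0.05, as had 2813 of all 11632 genes. Between Oct4+ and Pdgfra+, 2 were called (*Dkk1* and *Tcf7l1*), both lower in Oct4+, where 10.1% of all genes were called lower and 3.17% higher. Between DP and Pdgfra+, limma called 0 of the 6, with 1 at an unadjusted p under 0.05 (303 of all 11632 genes), where 0.0602% of all genes were called. By highest coverage *Tcf7l1* alone was called, lower in Oct4+ than in DP (2.54% of all genes were called lower) and in Pdgfra+ (4.72%). By width *Dkk1* alone was called, with the width in Oct4+ set to 0 for want of a peak, against DP (2.63% of all genes called lower) and Pdgfra+ (1.53%), which repeats its absence from Oct4+ nEnd. Between DP and Pdgfra+ neither measure called a member, at 0 and 0.284% of all genes. The exact permutation test by total signal called 0 of all 11632 genes in any comparison, so its 0 calls among the 6 say nothing particular about them. Each population entered more than 1 comparison, so the comparisons are not independent.

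**Figure D4:**
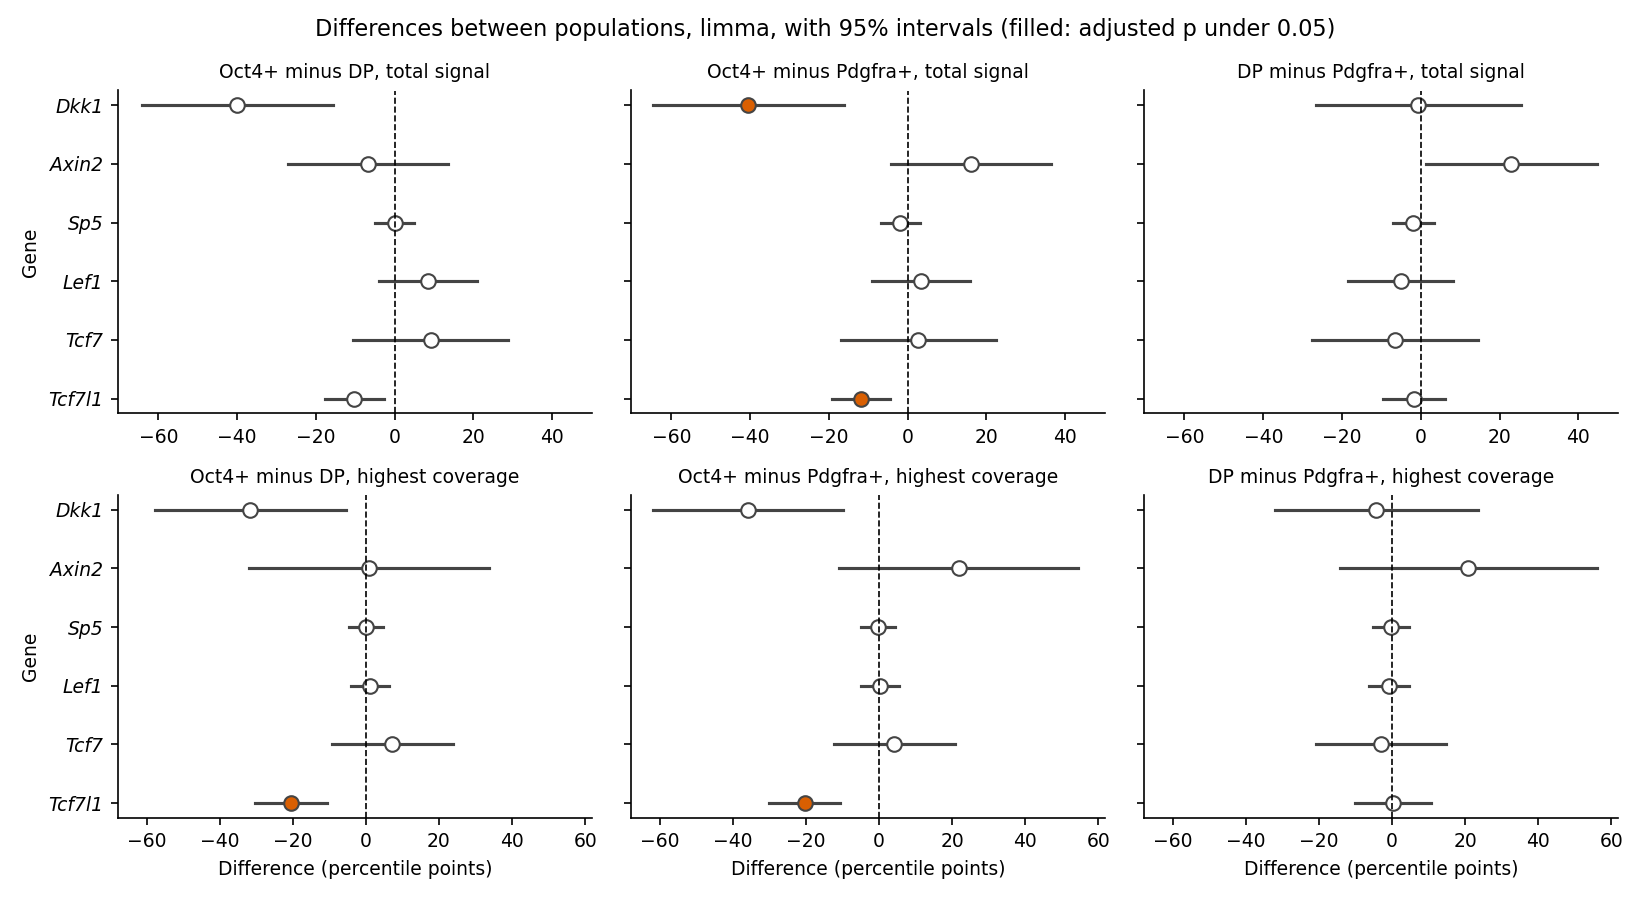
Differences in percentile between populations for the 6 genes with a peak in at least 1 library, by total signal (top) and by highest coverage (bottom); points are limma differences, lines are 95% intervals, and filled points have an adjusted p under 0.05. Dkk1 and Tcf7l1 lie left of 0 in all 4 panels that involve Oct4+ nEnd, and no point is filled for DP minus Pdgfra+.

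The deposited consensus peaks, 1 list per population, were read for the same 10 genes. *Axin2* and *Tcf7l1* were in all 3 lists, with widths of 4870, 5622 and 5297 bp for *Axin2* and 4886, 5842 and 6159 bp for *Tcf7l1* in Oct4+, DP and Pdgfra+ nEnd. *Dkk1* was in the DP list (4753 bp) and the Pdgfra+ list (4045 bp) and not in the Oct4+ list. *Lef1* was in the Oct4+ list alone (5473 bp), and *Tcf7* was in the Oct4+ (4288 bp) and DP (4231 bp) lists, although each was missing from at least 1 library of those populations. The consensus lists hold positions without signal, so no rank was taken from them.

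Among other genes of the pathway, calls ran in both directions. A list of 94 further ligands, receptors, antagonists, destruction complex members, TCF/LEF cofactors and targets held 61 with a promoter peak. This list too was written with earlier results of these data known. Of these 61, limma called 3 higher and 8 lower in Oct4+ than in DP nEnd by total signal, and 4 higher and 11 lower in Oct4+ than in Pdgfra+ nEnd. Of all genes, 1.34% and 5.76% were called higher and lower in the first comparison and 3.17% and 10.1% in the second. Their median differences were -5.67 and -11.4 points, beside -6.83 and -7.42 for all genes, and the second was -2.64 points without Pdgfra+ replicate 1. Between DP and Pdgfra+ nEnd limma called 0 of the 61, with 2 at an unadjusted p under 0.05, and the exact permutation test called 0 of these, as of all 11632 genes, in any comparison. Leaving out 1 library changed the number called lower by more than 1.5 times in these cases: between Oct4+ and DP it was 14 without Oct4+ replicate 1 and 5 without any 1 of the DP libraries, and between Oct4+ and Pdgfra+ it was 18 without Oct4+ replicate 1, 7 without Oct4+ replicate 4 and 6 without Pdgfra+ replicate 1. With equal numbers of peaks per library, 39 of the listed genes were tested, and 4 were called higher and 13 lower against DP and 11 higher and 17 lower against Pdgfra+. In that setting 773 of all 6344 genes tested were called higher and 1116 lower against DP, and 1139 and 1397 against Pdgfra+. Without Oct4+ replicate 3 and Pdgfra+ replicate 2 together, 3 and 8 were called between Oct4+ and DP and 4 and 14 between Oct4+ and Pdgfra+.

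Antagonists went in both directions. *Notum*, a secreted enzyme that removes the lipid of WNT ligands and is also a WNT target, stood at 93.9, 95.7, 91.3 and 95.3 in Oct4+ replicates 1 to 4. It stood at 8.67, 23.2 and 15.6 in DP nEnd and was unmarked in all 3 Pdgfra+ libraries. The difference was 78.2 points from DP (SE 8.38, limma adjusted p = 0.000245) and 94.0 points from Pdgfra+ (adjusted p = 5.07e-05). The antisense gene *Notumos* lies under the same peak in each of the 7 marked libraries. *Frzb*, a decoy receptor related to the *Sfrp* genes, was unmarked in all 4 Oct4+ libraries and stood at 73.3, 79.7 and 70.3 in DP and at 91.9, 63.6 and 87.0 in Pdgfra+ nEnd, with differences of -74.4 (adjusted p = 0.00069) and -80.8 points (adjusted p = 0.000252). Of the 19 antagonist genes listed, the 4 above included, 12 were marked in no library, where 11632 of all 21951 genes were marked in at least 1.

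Of 19 ligand genes, 7 were marked in at least 1 library, where 11632 of all 21951 genes were, and 1 of the 7 was called. Of all genes tested, 1.34% were called higher and 5.76% lower in Oct4+ than in DP nEnd, and 3.17% and 10.1% against Pdgfra+ nEnd. *Wnt11*, which acts mainly outside the beta-catenin branch, was unmarked in all Oct4+ libraries and stood at 90.6, 91.9 and 90.7 in DP and at 85.6, 40.1 and 78.0 in Pdgfra+ nEnd. Its differences were -91.1 (SE 11.1, limma adjusted p = 0.000588) and -67.9 points (adjusted p = 0.00234). The other 6 marked ligand genes did not rise above the 27.3 percentile in any library.

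Of 15 receptor and coreceptor genes, 14 were marked in at least 1 library, where 11632 of all 21951 genes were. *Fzd10* stood at 68.1, 71.7, 67.1 and 40.0 in Oct4+ nEnd, at 4.52, 5.25 and 0 in DP and at 0 in all Pdgfra+ libraries, differences of 58.5 (limma adjusted p = 0.00269) and 61.7 points (adjusted p = 0.00118). *Fzd2* ran the other way, unmarked in all Oct4+ libraries and at 67.8, 64.1 and 74.6 in Pdgfra+ nEnd (difference -68.8 points, adjusted p = 0.000262). *Fzd5* and *Fzd7*, the receptors most strongly marked, stood between the 86.0 and 99.3 percentile in all 10 libraries, and no difference in them was called. *Fzd4*, whose peak also covered the promoter of *Tmem135* in all 8 marked libraries, passed as lower in Oct4+ (0 to 47.6) than in DP (68.6 to 75.5) and Pdgfra+ nEnd (70.9 to 80.3).

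All 15 genes of beta-catenin and its destruction complex were marked in at least 1 library, as were 11632 of all 21951 genes. Of the 15, 0 were called between Oct4+ and DP nEnd, where 1.34% of all genes tested were called higher and 5.76% lower in Oct4+. Against Pdgfra+ nEnd these shares of all genes were 3.17% and 10.1%. Between Oct4+ and Pdgfra+, *Dvl2*, which relays the receptor signal, was higher in Oct4+ (98.1 to 99.6 against 41.7 to 68.4, difference 46.8 points, limma adjusted p = 0.00426), and *Btrc*, an F-box protein that marks beta-catenin for degradation, passed as lower (0 to 18.4 against 30.2 to 47.8). In 6 of its 10 libraries the *Dvl2* peak also covered the promoter of *Phf23*, in 2 that of *Gabarap* and in 1 that of *Ctdnep1*, so its level cannot be assigned to *Dvl2* alone. *Ctnnb1*, which encodes beta-catenin, stood at 76.8 to 84.0 in Oct4+, 76.4 to 80.6 in DP and 47.2 to 79.6 in Pdgfra+ nEnd.

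Among TCF/LEF cofactors, *Bcl9l*, which bridges beta-catenin to its coactivators, stood at 31.7, 33.1, 8.46 and 21.8 in Oct4+ and at 99.5, 99.3 and 99.4 in DP nEnd (difference -75.6 points, SE 8.1, limma adjusted p = 0.000245). The noncoding gene *Gm47205* lies under the same peak in all 10 libraries, and C030014I23Rik, Gm22540 and Gm47204 do in 4 of the 10, so the level cannot be assigned to *Bcl9l* alone. Noncoding genes also lie under the peaks of *Tle1*, *Tle3*, *Ctnnbip1*, *Btrc* and *Fzd10* in each library that has them. The corepressor genes *Tle1* (0 to 70.6 in Oct4+, 94.7 to 96.7 in DP, 96.5 to 98.98 in Pdgfra+) and *Tle3* (58.4 to 82.6, 94.8 to 96.8 and 87.1 to 96.9) passed as lower in Oct4+ than in both other populations, although the call of *Tle1* against DP was kept in only 10 of 20 alternatives. *Ctnnbip1*, an inhibitor of the beta-catenin and TCF interaction, passed as lower in Oct4+ (unmarked in all 4 libraries) than in Pdgfra+ nEnd (20.3 to 47.5). Among targets, *Ccnd1*, a cyclin of the cell cycle start, stood at 85.0, 82.5, 63.2 and 86.7 in Oct4+, at 0, 8.18 and 0 in DP and at 0 in all Pdgfra+ libraries, differences of 76.6 and 79.3 points (adjusted p = 0.000363 and 0.000171). *Sp8*, a relative of *Sp5*, stood at 16.8 in Oct4+ replicate 1 and 0 in the other 3 Oct4+ libraries, at 83.6 to 89.2 in DP and at 94.5 to 97.5 in Pdgfra+ nEnd, differences of -82.2 (adjusted p = 0.000207) and -91.4 points (adjusted p = 5.75e-05). The called target genes did not move in 1 direction: *Ccnd1* and *Notum* were higher in Oct4+ in both comparisons and *Sp8* was lower in both, while *Dkk1* and *Znrf3*, which are also on the target list, were called lower against Pdgfra+. *Znrf3*, a ligase that removes Frizzled receptors, passed as lower in Oct4+ (25.8 to 67.5) than in Pdgfra+ nEnd (80.1 to 93.7).

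Of the called genes, *Notum*, *Ccnd1*, *Fzd10*, *Wnt11*, *Sp8* and *Bcl9l* were called in the same direction in both comparisons under all 20 alternatives fitted with limma. *Frzb* kept its calls in 20 (DP) and 19 (Pdgfra+), *Fzd2* in 19 and 20, *Fzd4* in 14 and 19, *Tle3* in 17 and 18 and *Tle1* in 10 and 15. Against Pdgfra+ alone, *Dvl2* kept its call in 19, *Ctnnbip1* and *Znrf3* in 16 each and *Btrc* in 11. *Fzd4*, *Tle1*, *Tle3*, *Btrc*, *Ctnnbip1* and *Znrf3* were named after their values were seen.

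**Figure D5:**
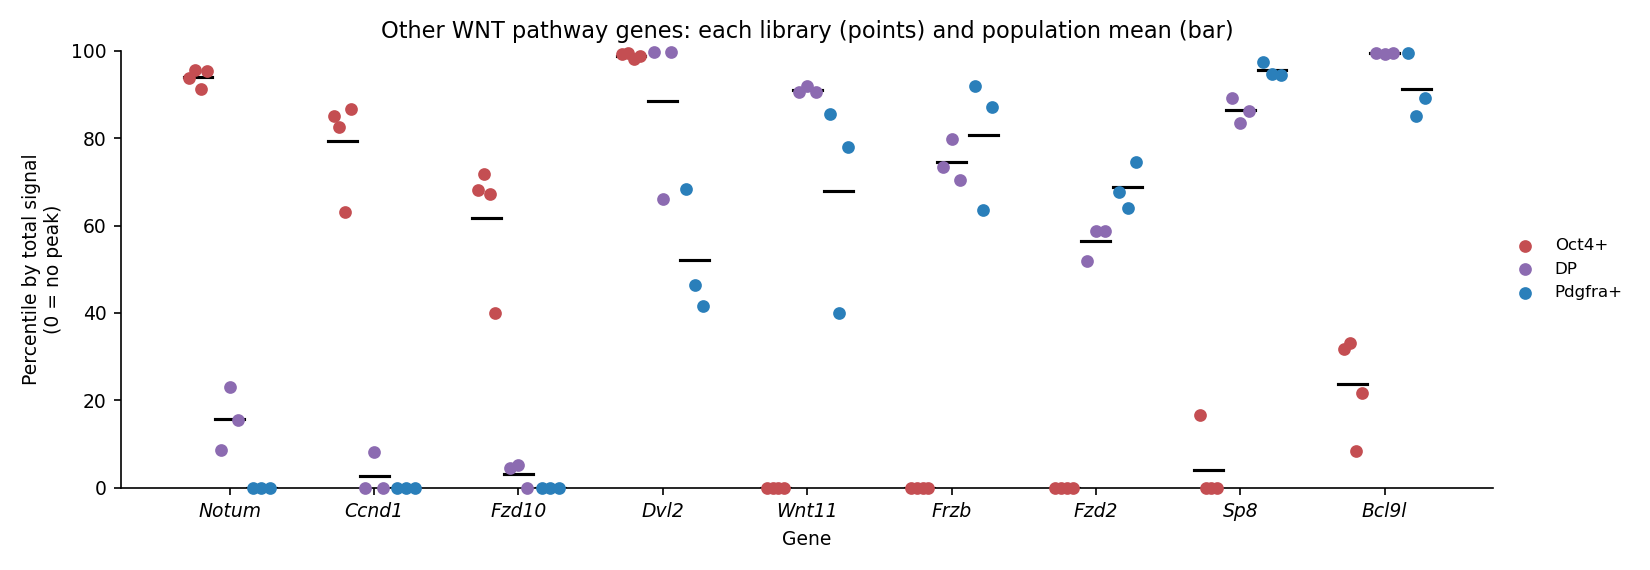
Percentile by total signal (vertical axis, 0 where no peak was called) of the promoter peaks of 9 other WNT pathway genes, named by the size of their difference; points are libraries, bars are population means. Notum, Ccnd1 and Fzd10 sit high in Oct4+ nEnd and at or near 0 in Pdgfra+ nEnd, while Wnt11, Frzb and Fzd2 are at 0 in all 4 Oct4+ libraries.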

How the data were processed

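H3K4me3 CUT&Tag libraries of sorted nEnd (4 Oct4+, 3 DP, 3 Pdgfra+) were grouped by the population in the labels. Per the study's methods, the authors called peaks against IgG with SEACR (stringent) and took consensus peaks with DiffBind, 1 list per population. Per the labels, bcl2fastq 2.19.1, Bowtie2, SAMtools 1.12, deepTools and bedtools 2.26.0 were used on build mm10. The deposited peak lists give, as signal, the authors' coverage summed over each peak and its highest coverage, without scaling between libraries. The number of reads is unknown, so no depth-based interval was computed. The consensus lists as deposited hold positions only.

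Start sites (93526, GENCODE M21, GRCm38) of 21951 protein-coding genes were used, and the build was checked by the share of peaks over a start site. The strongest promoter peak by total signal represented a gene. Percentiles (0 without a peak) and log2(width in kb + 1) were fitted with limma 3.58.1 (trend, robust) over all 10 libraries, with Benjamini-Hochberg adjustment over 11632 genes marked in at least 1 library and a threshold of 0.05. The code was tested on simulated data. Exact two-sided permutation tests, other windows, overlaps, annotations, filters and scalings, a replicate block and leaving out libraries were alternatives. Named are the 10 genes, other pathway genes by group and, per comparison and direction, up to 4 with the largest called difference. Promoter sequences are from RefSeq, and that of Sfrp1 was not used. The members and lists were chosen with earlier results of these data known. Python 3.11.15, pandas 2.3.3, scipy 1.17.1 and R 4.3.3 were used.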

Additional observations from a re-analysis of the deposited data

Results flagged for a closer look

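*Axin2* in Oct4+ replicate 3 lay far below the other Oct4+ libraries. It stood at the 61.95 percentile by total signal, where the other 3 stood at 84.1 to 87.2, and at the 31.8 percentile by highest coverage, where the others stood at 63.5 to 67.8. The gap to the next library was 0.877 and 0.881 of the range of the group, above the critical value of 0.829 for 4 samples in Dixon's test. This was so in 2 of the 6 groups of values examined, and chance marks about 1 group in 20. Both were the same peak in the same library by related measures, so they are not independent and the count cannot be set against that rate. Oct4+ replicate 3 held 3477 peaks, the fewest of the 10 libraries, and what this contributed to the value was not tested.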

How the results depend on the processing

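The 54 results for the 6 marked genes were recomputed under 19 to 21 alternatives by total signal and under 12 by highest coverage and by width. Of 795 values, 699 kept their side of the threshold without a change of sign (12 of these went to or from 0), 45 kept the direction and lost the call, 10 gained a call and 41 changed sign. The changes of sign fell in 14 results, 0 of the 41 values passed the threshold, and their lowest adjusted p was 0.419. The number of reads behind a peak is unknown, and the libraries hold unequal numbers of peaks. Leaving out Oct4+ replicate 3 and Pdgfra+ replicate 2 together was chosen after seeing the data. The cause of the changes was not tested.

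Over all genes, calls between Oct4+ and DP by total signal were 826 (156 higher and 670 lower), and 441 with a replicate block, 1889 (773 and 1116) of 6344 genes with equal numbers of peaks, 1686 (506 and 1180) with log2 signal over the library median and 0 in the exact test. Between Oct4+ and Pdgfra+ they were 1540 (369 and 1171), and 841, 2536 (1139 and 1397), 2707 (853 and 1854) and 0 in the same settings. Between DP and Pdgfra+ they were 7, and 2 with the block, 20 without trend and robust fitting, 131 (72 and 59) with equal peaks, 11 for genes marked in at least 3 libraries, 21 for all annotated genes, 29 with log2 signal, 0 in the exact test and 11 without the pair of libraries. The block gave 125 by highest coverage (379 without) and 191 by width (354 without) between Oct4+ and DP, and 360 by highest coverage (692 without) between Oct4+ and Pdgfra+. By width, DP and Pdgfra+ differed at 33 genes, or 20 without the pair of libraries.

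Leaving out 1 library at a time, calls over all genes by total signal ranged from 304 to 1610 (Oct4+ and DP), 850 to 2346 (Oct4+ and Pdgfra+) and 2 to 97 (DP and Pdgfra+). By highest coverage they ranged from 62 to 826, 349 to 1359 and 0 to 12, and by width from 3 to 705, 60 to 624 and 19 to 233. Of the 10 genes, 0 to 1 were called between Oct4+ and DP by each measure, 0 to 2 between Oct4+ and Pdgfra+ by total signal and by highest coverage, 0 to 1 by width, and 0 between DP and Pdgfra+. Genes marked in every library numbered 2 to 3 in Oct4+, 3 to 4 in DP and 3 in Pdgfra+ nEnd.

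Among the 10 genes, *Dkk1* gained the call between Oct4+ and DP by total signal for genes marked in at least 3 libraries (-39.9 points, adjusted p = 0.0371), with log2 signal (-0.85, 0.00481) and without the pair of libraries (-39.9 points, 0.0229), which made 1 call each. *Tcf7l1* gained it with equal numbers of peaks (-12.9 points, 0.00578), again 1 call. Between Oct4+ and Pdgfra+ by total signal, *Dkk1* lost it when a peak had to cover 50% of a window (-35.9 points, 0.0974) and *Tcf7l1* lost it without trend and robust fitting (-11.8 points, 0.084), with log2 signal (-0.66, 0.0567) and without the pair (-8.77 points, 0.0985), leaving 1 call in each, and the exact test left 0 (adjusted p = 0.24 and 0.305). Without the pair, *Dkk1* gained the call by highest coverage (-50.6 points, 0.0269), making 2, and lost that by width (-2.18 on the log2 scale), leaving 0. *Axin2* gained a call with equal peaks (44.1 points). The Oct4+ consensus list held 4 of the genes, where 2 were marked in every Oct4+ library, and with equal peaks 1 was marked in every Pdgfra+ library, where 3 were.

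Signs changed as follows, none of it past the threshold. Leaving out 1 library, *Dkk1* in DP minus Pdgfra+ ranged from -14.0 to 11.1 points by total signal and -19.0 to 5.93 by highest coverage, and was 3.98 by total signal when a peak had to cover 50% of a window. *Axin2* ranged from -2.55 to 9.45 points (Oct4+ minus DP, highest coverage, -2.55 with the replicate block) and from -0.021 to 0.29 in log2 width (Oct4+ minus Pdgfra+). *Tcf7* ranged from -11.7 to 4.04 and -7.19 to 5.15 points (DP minus Pdgfra+, by total signal and highest coverage), -2.52 to 13.2 points (Oct4+ minus Pdgfra+, total signal) and -0.65 to 0.67 in log2 width (Oct4+ minus DP, -0.055 with the block). *Lef1* in Oct4+ minus Pdgfra+ ranged from -0.13 to 1.15 points by highest coverage and -0.019 to 1.24 in log2 width. *Tcf7l1* in DP minus Pdgfra+ ranged from -0.086 to 0.82 points by highest coverage (-0.086 without the pair) and -0.076 to 0.15 in log2 width (-0.062 without the pair). With log2 signal *Sp5* was 0.085 in DP minus Pdgfra+ and 0.31 in Oct4+ minus Pdgfra+.

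Replicate numbers are shared between populations. Over 9 pairs of libraries with the same number, deviations from the population means correlated at -0.203 to 0.209 (median 0.0553, 3 over 0.1). Over 24 pairs with different numbers they correlated at -0.382 to 0.347 (median -0.031, 3 over 0.1). These values cannot show whether libraries with the same number came from the same culture, and the labels do not say. With the replicate block, *Dkk1* and *Tcf7l1* lost their calls between Oct4+ and Pdgfra+ by total signal (-40.5 points, adjusted p = 0.0866, and -10.6 points, 0.118), *Tcf7l1* lost those by highest coverage (-20.3 points from DP, 0.116, and -20.1 from Pdgfra+, 0.0808) and *Dkk1* lost that from Pdgfra+ by width (-1.95), which left 0 calls in each, and among the other listed pathway genes 3 and 6 were called higher and lower between Oct4+ and DP and 4 and 8 between Oct4+ and Pdgfra+.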
